A study of Mus musculus with 4 samples.

Results

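The CC chemokines described here are 10 genes, Ccl2, Ccl3, Ccl4, Ccl5, Ccl6, Ccl7, Ccl8, Ccl9, Ccl12 and Ccl24, followed through the cell types of the aged mouse kidney. They were taken by symbol from the 31054 features of the deposited count tables, and each symbol matched 1 feature. Kidneys came from male C57BL/6 mice that were 19 months old. One group had received BPTES, an inhibitor of the enzyme that turns glutamine into glutamate, for 1 month, and the other had received its solvent DMSO for the same time. Each group has 2 libraries (replicates 1 and 2). The labels do not say whether the libraries of a group come from separate animals, so p-values measure only the spread between these libraries, which may be technical. Both groups were digested with liberase and sorted on the leukocyte marker CD45, and 20000 CD45-negative cells were mixed with 9000 CD45-positive cells before library preparation. The share of leukocytes in a library was therefore set by the sort.

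CC chemokines are small secreted proteins that carry a pair of neighbouring cysteines and draw leukocytes along a gradient by binding G protein-coupled receptors. Ccl2, Ccl7 and Ccl12 are ligands of Ccr2, the receptor that brings classical monocytes into tissue, and mouse Ccl8 is a ligand of Ccr8. Ccl3, Ccl4 and Ccl5 draw monocytes, NK cells and T cells, Ccl6 and Ccl9 bind Ccr1, and Ccl24 is an eosinophil attractant that binds Ccr3.

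Of the 10 genes, 9 lie in 2 blocks on chromosome 11 of GRCm38 in the GENCODE vM21 annotation, and Ccl24 lies alone on chromosome 5 at chr5:135569937-135573049. The first block, chr11:82035571-82116799, spans 81.2 kb and holds Ccl2, Ccl7, Ccl12 and Ccl8 on the plus strand. The second block, chr11:83525778-83664683, spans 138.9 kb and holds Ccl5, Ccl9, Ccl6 and Ccl3 on the minus strand and Ccl4 on the plus strand. The stretches of 36 bases that give the family its name follow here for 9 of the genes, read from the coding sequence of 1 GENCODE transcript per gene and printed 5′ to 3′. Capitals mark the codons of the adjacent cysteines, which lie in exon 2 of 3, or in exon 3 of 4 for Ccl6 and Ccl9.
Ccl2: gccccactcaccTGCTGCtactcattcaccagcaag
Ccl7: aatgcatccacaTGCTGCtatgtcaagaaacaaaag
Ccl12: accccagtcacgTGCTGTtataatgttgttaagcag
Ccl8: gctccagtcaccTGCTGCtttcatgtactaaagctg
Ccl4: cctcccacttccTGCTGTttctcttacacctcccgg
Ccl5: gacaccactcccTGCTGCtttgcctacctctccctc
Ccl6: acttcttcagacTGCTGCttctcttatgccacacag
Ccl9: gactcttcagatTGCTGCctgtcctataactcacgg
Ccl24: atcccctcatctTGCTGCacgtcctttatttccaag
The bases around the cysteine codons differ in every pair of these genes. Over the whole coding sequence the closest pairs were Ccl3 and Ccl4 with 65.6% identical bases, Ccl6 and Ccl9 with 64.8%, and Ccl8 and Ccl12 with 64.4%. How reads shared between such copies were assigned is not given in the sources used here.

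Upstream sequence was at hand for 5 of the 10 genes in the RefSeq promoter table (GRCm38.p6). The 250 bases before the start of Ccl12 (chr11:82101595-82101844, plus strand), Ccl8 (chr11:82114935-82115184, plus strand) and Ccl9 (chr11:83578637-83578886, minus strand) are shown. Ccl12 and Ccl9 were among the genes that fell in macrophages, and Ccl8 was called, on few UMIs, in the test of macrophages against a dendritic cell class. Capitals mark matches to searched motifs.
Ccl12: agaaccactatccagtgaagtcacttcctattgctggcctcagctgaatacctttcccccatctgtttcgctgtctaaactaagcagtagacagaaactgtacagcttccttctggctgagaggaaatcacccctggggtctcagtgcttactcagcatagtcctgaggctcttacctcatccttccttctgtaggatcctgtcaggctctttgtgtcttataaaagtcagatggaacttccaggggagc
Ccl8: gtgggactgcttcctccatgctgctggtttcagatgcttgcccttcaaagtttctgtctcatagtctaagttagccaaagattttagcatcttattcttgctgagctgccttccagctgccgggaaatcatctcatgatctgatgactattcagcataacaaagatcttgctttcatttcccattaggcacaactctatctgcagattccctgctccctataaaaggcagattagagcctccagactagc
Ccl9: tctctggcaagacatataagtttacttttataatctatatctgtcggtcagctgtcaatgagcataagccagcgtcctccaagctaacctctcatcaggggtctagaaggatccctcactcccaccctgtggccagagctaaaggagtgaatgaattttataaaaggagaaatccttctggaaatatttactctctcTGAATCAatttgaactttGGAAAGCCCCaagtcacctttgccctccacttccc
The motifs searched, on both strands, were the NF-kB consensus, AP-1 (TGANTCA) and the STAT6 consensus (TTC and GAA around any 4 bases). Ccl9 held an NF-kB match at position -35 and an AP-1 match at position -53 from the gene's start. The stretches of Ccl12, Ccl8, Ccl6 and Ccl3 held none of these letters. Among the 32851 promoter stretches of the same length, 7.25% held the NF-kB match, 6.75% AP-1 and 5.85% STAT6.

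After filtering, 46738 cells remained (12076 and 10849 under BPTES, 12075 and 11738 under DMSO). Clustering without any chemokine or chemokine receptor gene gave 51 clusters, which fixed markers placed in 24 cell classes. Names such as macrophage rest on these markers and stand for macrophage-like cells. Leukocyte classes numbered 15 with 13933 cells, and 9 clusters with 4289 cells stayed unnamed. The libraries shared 611 barcode sequences. Raw counts of unique molecular identifiers (UMIs, 1 per captured transcript) were summed per class and library, and a level is given as UMIs per 1000000 UMIs of that sum (CPM). The macrophage sums held 12986619 to 25073438 UMIs from 705 to 947 cells per library.

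Macrophages comprised 2 clusters that differed in more than depth. Cluster 5 had 2302 cells with a median of 13757 UMIs, and cluster 15 had 1031 cells with a median of 30149 UMIs. The 7 CD8 T cell markers summed to 1062 and 1094 CPM under BPTES and 819 and 849 CPM under DMSO in cluster 15. In cluster 5 the same sum was 6.59 and 4.81 CPM under BPTES and 11.5 and 9.09 CPM under DMSO. CD8 T cells themselves had 3243 to 4310 CPM. Cluster 15 thus carried markers of both cell types after the removal of predicted doublets, and the macrophage results that follow are set beside values from cluster 5 alone.

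Macrophage markers themselves were lower under BPTES. The 8 of them summed to 13112 and 12684 CPM under BPTES and 14882 and 17492 CPM under DMSO in cluster 5, and to 7854 and 7717 CPM against 9303 and 10772 CPM in cluster 15. The groups did not overlap in either cluster. The 8 proximal tubule markers, which macrophages should lack, were higher under BPTES, with 226 and 329 CPM against 167 and 146 CPM in cluster 5 and 201 and 111 CPM against 77.3 and 74.0 CPM in cluster 15. The part of both in the chemokine results of macrophages was not tested.

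Leukocytes held nearly all of these transcripts, and macrophages held the largest share, on the mean of the 4 libraries, of 7 of the 10 genes (Ccl2, Ccl3, Ccl4, Ccl7, Ccl8, Ccl12 and, through 1 library, Ccl24). The leukocyte share of a gene's UMIs ranged from 83.2% (Ccl8 in 1 library) to 99.1% (Ccl9 in 1 library). Ccl8 and Ccl12 were the most concentrated in macrophages, which held 75.4% of Ccl8 UMIs on average over the 4 libraries (59.5% to 85.8%) and 73.7% of Ccl12 UMIs (69.6% to 76.3%). Of Ccl7, macrophages held 51.4% (28.1% to 65.6%), ahead of classical monocytes with 17.003%. Macrophages led it in 3 libraries, and classical monocytes led in BPTES replicate 1. Ccl2 was spread more widely, with 38.5% of UMIs in macrophages (30.7% to 50.9%), 25.2% in classical monocytes and 11.6% in conventional dendritic cells 2, a subset that presents antigen to CD4 T cells.

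Ccl3 and Ccl4 were also led by macrophages, and Ccl5 by CD8 T cells. Of Ccl3, 41.4% of UMIs lay in macrophages and 13.1% in classical monocytes, and of Ccl4, 43.2% in macrophages, 13.5% in conventional dendritic cells 2 and 10.6% in CD8 T cells. Of Ccl5, CD8 T cells held 52.6% (51.9% to 54.1%) and NK cells 12.9%. The macrophage class held 18.1% of Ccl5, of which cluster 15, with its T cell markers, held 17.5% of all Ccl5 UMIs.

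Ccl6 and Ccl9 had their largest mean share in classical monocytes, though not in every library. That class also carried the 8 macrophage markers, at 4172 and 3235 CPM under BPTES and 8135 and 8479 CPM under DMSO. In the main clustering it had 214 and 221 cells under BPTES and 384 and 168 under DMSO. At Leiden resolution 2 it had 135 and 179 under BPTES and 174 and 73 under DMSO. Classical monocytes held 31.5% of Ccl6 UMIs, neutrophils 24.2% and macrophages 19.9%. Of Ccl9, classical monocytes held 35.2%, macrophages 26.4% and conventional dendritic cells 2 18.3%. For Ccl6 classical monocytes led in 2 of the 4 libraries, while neutrophils led in BPTES replicate 1 and macrophages in DMSO replicate 2. For Ccl9 they led in 3 libraries, and macrophages led in DMSO replicate 2. Another class or cluster led both genes with doublets kept, at a 25% mitochondrial limit and at Leiden resolution 2, and Ccl24 with chemokine genes in the clustering, whereas the leading class of the other 7 genes was the same under these 4 settings. At the 25% limit an unnamed cluster held the largest share of Ccl9, and classical monocytes held 19.7%. Ccl24 gave 403 UMIs in all, of which macrophages held 43.9% and classical monocytes 39.1% on average. Classical monocytes had more Ccl24 UMIs than macrophages in 3 libraries, with 29 against 28 and 49 against 25 under BPTES and 53 against 38 in DMSO replicate 1. DMSO replicate 2, with 101 UMIs in macrophages and 13 in classical monocytes, put macrophages first.

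**Figure D1:**
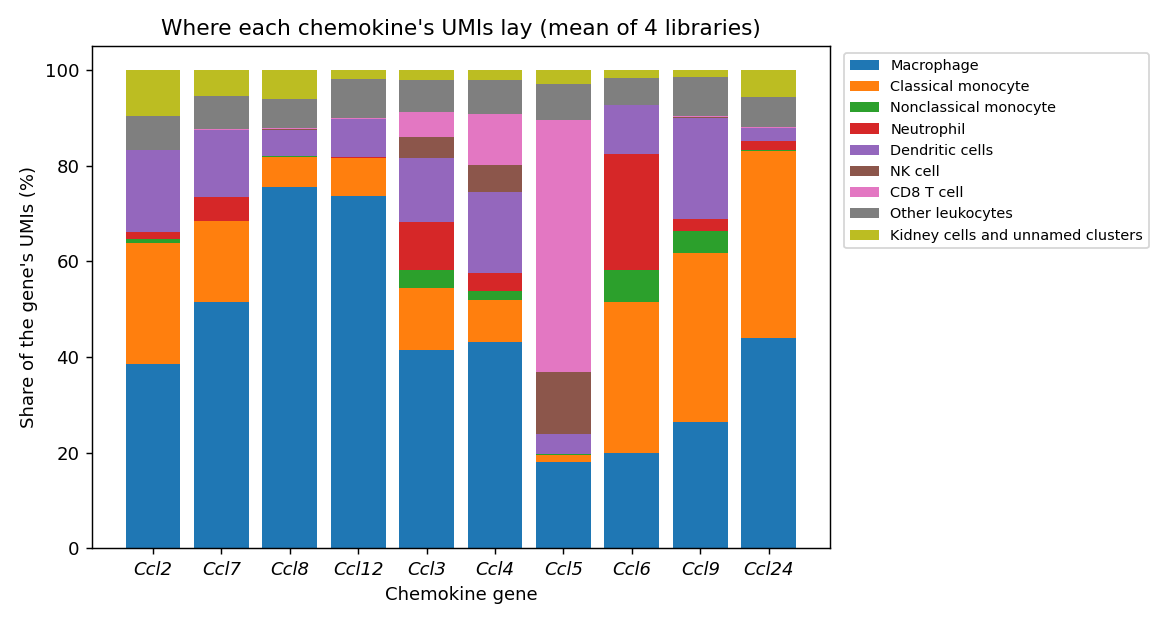
Share of each chemokine's UMIs (vertical axis, percent) by cell class, mean of the 4 libraries, for the 10 genes on the horizontal axis. Macrophages hold 75.4% of Ccl8 and 73.7% of Ccl12, CD8 T cells hold 52.6% of Ccl5, and classical monocytes and neutrophils hold 31.5% and 24.2% of Ccl6.

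The levels per class, which do not depend on how many cells of a class were sorted, gave a different order for several genes. In classical monocytes Ccl2 had 76.1 and 46.8 CPM under BPTES and 142 and 215 CPM under DMSO, and each of these values was above the macrophage value of the same library. Its neighbours in that order were macrophages and then cycling leukocytes, whose libraries overlapped. For Ccl6 neutrophils had the highest level among named classes, with 2095 and 1860 CPM under BPTES and 2098 and 1468 CPM under DMSO. Classical monocytes followed with 980 and 1058 CPM under BPTES and 753 and 1236 CPM under DMSO, below neutrophils in every library.

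NK cells and CD8 T cells, the cytotoxic lymphocytes, had the highest Ccl5 levels, and their ranges overlapped. In CD8 T cells Ccl5 had 5431 and 4372 CPM under BPTES and 6149 and 5716 CPM under DMSO. In NK cells it had 3686 and 4428 CPM under BPTES and 4757 and 6405 CPM under DMSO. Ccl4 was highest in NK cells in every library, whereas Ccl3 was high in neutrophils of DMSO replicate 2 alone, with 1408 CPM against 234 to 257 CPM in the other 3 libraries.

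**Figure D2:**
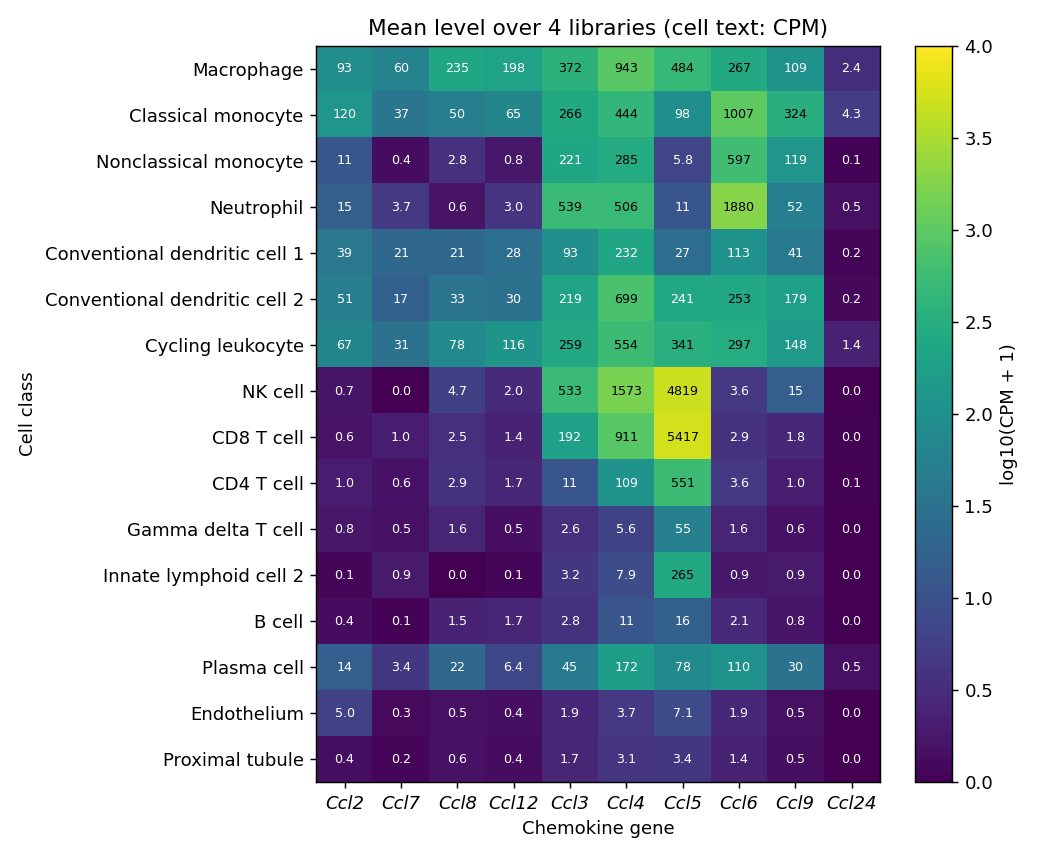
Mean level of each chemokine over the 4 libraries in 16 cell classes; the colour is log10(CPM + 1) and the number in each field is the CPM. Ccl5 stands out in NK and CD8 T cells, Ccl6 in neutrophils and monocytes, and Ccl8 and Ccl12 in macrophages, while proximal tubule is dark for every gene.

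The comparison of BPTES with DMSO asks whether a class carries more or less of a chemokine's RNA after 1 month of the inhibitor. In macrophages 3 of the 10 genes fell (Ccl6, Ccl9 and Ccl12) and none rose, by edgeR's quasi-likelihood test with Benjamini-Hochberg adjustment over 14036 genes at a threshold of 0.05. Of all genes tested in macrophages, 3.44% were called lower. At an unadjusted p under 0.05 there were 5 such chemokine genes, and DESeq2 called 5. Of all 14036 genes, 3723 had an unadjusted p under 0.05 in either direction, and DESeq2 called 538 lower. The level was lower in both BPTES libraries than in either DMSO library for 8 of the 10 genes and for 28.6% of all genes with at least 10 macrophage UMIs. The median log2 fold change was -0.77 over the 10 genes and -0.0001 over all genes. A negative log2 fold change means a lower level under BPTES. SE is the size of the log2 fold change over the square root of the test's F, which only approximates a standard error. The exact permutation test of 2 against 2 libraries cannot go below a p of 0.333.

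Ccl12, a Ccr2 ligand found in rodents, had 114 and 82.8 CPM in macrophages under BPTES and 252 and 345 CPM under DMSO. Both BPTES libraries lay below both DMSO libraries. The means were 98.2 ± 21.8 (SD, n = 2) and 298 ± 65.9 (SD, n = 2), and the log2 fold change was -1.60 (SE 0.22, adjusted p = 0.0427 by edgeR). In cluster 5 it had 141 and 85.1 CPM under BPTES and 366 and 465 CPM under DMSO (log2 fold change -1.87, adjusted p = 0.101 by edgeR). In cluster 15 it had 83.9 and 79.6 CPM under BPTES and 124 and 252 CPM under DMSO (log2 fold change -1.23, adjusted p = 0.281 by edgeR). Ccl12 was lower under BPTES in both clusters without overlap, and neither cluster alone passed the threshold.

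Ccl2, which recruits monocytes, had 36.8 and 29.6 CPM in macrophages under BPTES and 111 and 194 CPM under DMSO. The groups did not overlap (33.2 ± 5.02 and 153 ± 58.9, SD, n = 2 each), but the log2 fold change of -2.20 (SE 0.36) missed the threshold (adjusted p = 0.072 by edgeR). Its fold was alike in both clusters, at -2.22 in cluster 5 (adjusted p = 0.0984 by edgeR) and -2.22 in cluster 15 (adjusted p = 0.125 by edgeR). DESeq2 gave an adjusted p of 1.6e-05 for Ccl2, and over the 14 alternatives the adjusted p ranged from 2.42e-08 to 0.28.

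Ccl7, the neighbour of Ccl2 on the chromosome, had 10.6 and 6.31 CPM in macrophages under BPTES and 72.4 and 152 CPM under DMSO. These came from 164 and 82 UMIs under BPTES and 1625 and 3810 UMIs under DMSO. The log2 fold change of -3.72 (SE 0.61) was the largest of the 10 genes in macrophages and missed the threshold (adjusted p = 0.0919 by edgeR). In cluster 5 the levels were 12.8 and 8.69 CPM under BPTES against 77.7 and 186 CPM under DMSO, and in cluster 15 they were 8.17 and 3.09 CPM against 66.5 and 126 CPM.

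Among the 10 genes in macrophages, Ccl8 varied most between libraries of a group, with 113 and 25.6 CPM in macrophages under BPTES and 206 and 595 CPM under DMSO. The groups did not overlap, and the spread within each group was wide (69.5 ± 62.1 and 400 ± 275, SD, n = 2 each). Its log2 fold change of -2.53 (SE 1.18) did not pass the threshold (adjusted p = 0.343 by edgeR), and it was -3.95 without BPTES replicate 1 and -1.57 without DMSO replicate 2. DMSO replicate 2 was high in cluster 5 in particular, with 978 CPM against 221 CPM in DMSO replicate 1, and cluster 15 had 300 and 189 CPM in the same libraries.

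**Figure D3:**
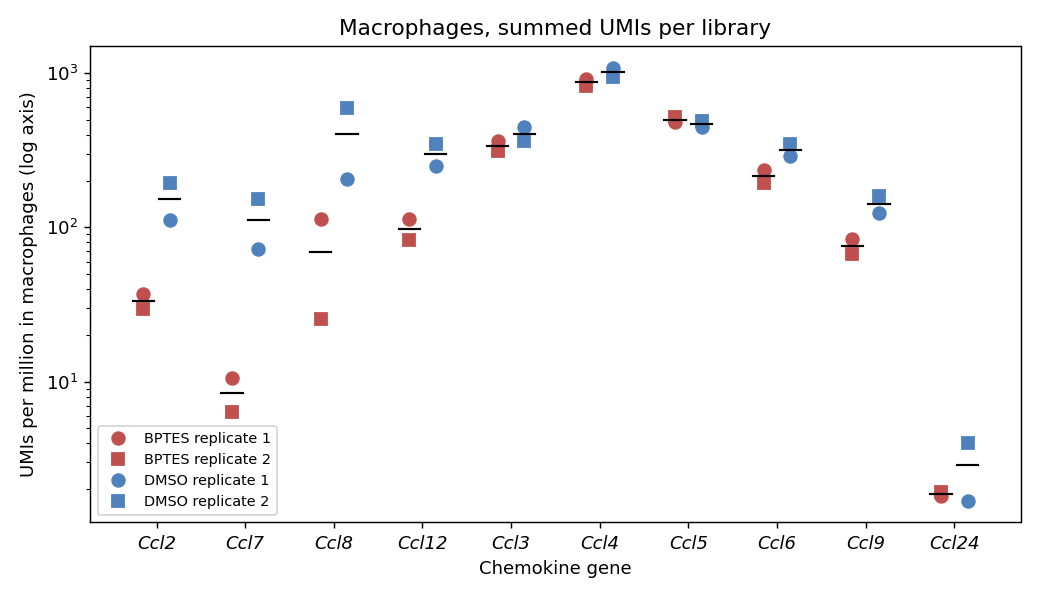
Level of each chemokine in macrophages (vertical axis, UMIs per 1000000 UMIs, log scale), 1 point per library, red for BPTES and blue for DMSO, with a line at each group's mean. The BPTES points lie below the DMSO points for Ccl2, Ccl7, Ccl8, Ccl12, Ccl3, Ccl4, Ccl6 and Ccl9, and overlap with them for Ccl5 and Ccl24.

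Ccl6 and Ccl9, neighbouring genes whose products bind Ccr1, fell less steeply. Ccl9 had 84.4 and 67.6 CPM in macrophages under BPTES and 124 and 161 CPM under DMSO (76.0 ± 11.9 and 142 ± 25.7, SD, n = 2 each), with a log2 fold change of -0.91 (SE 0.15, adjusted p = 0.0411 by edgeR). Ccl9 had a like fold in cluster 5 (-0.85, adjusted p = 0.0566 by edgeR) and in cluster 15 (-0.96, adjusted p = 0.0441 by edgeR). Ccl6 had 237 and 194 CPM under BPTES and 291 and 348 CPM under DMSO (215 ± 30.6 and 319 ± 40.7, SD, n = 2 each), with a log2 fold change of -0.57 (SE 0.12, adjusted p = 0.0467 by edgeR). In cluster 5 the Ccl6 fold was -0.35 (adjusted p = 0.127 by edgeR), and in cluster 15 it was -0.87 (adjusted p = 0.124 by edgeR). Leaving out BPTES replicate 1 or BPTES replicate 2 ended all 3 macrophage calls, along with every other call in that class. With a library left out, the log2 fold change ranged from -1.83 to -1.36 for Ccl12 and from -1.09 to -0.71 for Ccl9. For Ccl6 it ranged from -0.71 to -0.43. Cluster 5 alone gave 0 of the 10 genes, with 37 genes lower in all. Ccl9 kept its call under the other filters and clusterings, whereas Ccl12 lost it with doublets kept, without the low-count filter and at Leiden resolution 2, and Ccl6 with chemokine genes in the clustering, at a 25% mitochondrial limit (log2 fold change -0.35) and at Leiden resolution 2.

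In classical monocytes, which held the largest mean shares of Ccl6 and Ccl9 UMIs, neither gene passed the test. Macrophage markers were lower and the class's own markers higher there under BPTES, as given below with Ccl4. Their part in these values was not tested. Ccl9 had 291 and 331 CPM there under BPTES and 266 and 406 CPM under DMSO (log2 fold change -0.07, SE 0.23, adjusted p = 0.884 by edgeR). The groups overlapped for both genes, and for Ccl6 the log2 fold change was 0.07 (SE 0.26, adjusted p = 0.898 by edgeR). In neutrophils, Ccl6 also overlapped between the groups (log2 fold change 0.06, SE 0.24, adjusted p = 0.953 by edgeR).

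Ccl3 and Ccl4, neighbours in the second block, were lower in macrophages of both BPTES libraries by a small margin. Ccl3 had 365 and 311 CPM under BPTES and 446 and 366 CPM under DMSO (log2 fold change -0.26, SE 0.11, adjusted p = 0.198 by edgeR). Ccl4 had 921 and 823 CPM under BPTES and 1087 and 943 CPM under DMSO (log2 fold change -0.22, SE 0.10, adjusted p = 0.196 by edgeR). Neither gene passed the threshold in this class, and in cluster 5 the Ccl3 groups overlapped.

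Ccl4 fell in classical monocytes and in NK cells. In classical monocytes it had 308 and 279 CPM under BPTES and 519 and 668 CPM under DMSO (294 ± 20.2 and 594 ± 105, SD, n = 2 each). The groups did not overlap, and the log2 fold change was -0.98 (SE 0.15, adjusted p = 0.0346 by edgeR). Of all genes tested in classical monocytes, 1.1% were called lower, and Ccl4 was the 1 chemokine gene among 10. The 8 macrophage markers in this class summed to 4172 and 3235 CPM under BPTES and 8135 and 8479 CPM under DMSO, none of them at 0. The class's own 7 markers summed to 3075 and 3640 CPM under BPTES and 1855 and 2111 CPM under DMSO, and the heat shock genes Hspa1a (log2 fold change 1.03) and Hspa1b (1.204) rose in the same cells. The part of these markers and genes in the result was not tested. The call was lost with chemokine genes in the clustering, with doublets kept and at a 25% mitochondrial limit. Leaving out either BPTES library also ended it, along with every other call of a lower gene in the class. With a library left out, its log2 fold change ranged from -1.17 to -0.77.

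In NK cells, which number 43 to 186 per library, Ccl4 had 1447 and 1254 CPM under BPTES and 1908 and 1683 CPM under DMSO. The groups did not overlap, and the log2 fold change was -0.44 (SE 0.10, adjusted p = 0.0223 by edgeR), where 0.668% of all genes were called lower. DESeq2 did not call it (adjusted p = 0.263), nor did edgeR without BPTES replicate 2 (adjusted p = 0.605), without DMSO replicate 1 (adjusted p = 0.0806), with predicted doublets kept (log2 fold change -0.17, adjusted p = 0.829) at a 25% mitochondrial limit, at Leiden resolution 2 or in the main NK cluster 28 alone (adjusted p = 0.0669). The immediate early genes Dusp1, Ier2 and Junb, which respond to handling and stimulation, fell in the same cells, with log2 fold changes of -1.22, -0.69 and -0.57. The 8 macrophage markers in NK cells summed to 33.0 and 24.5 CPM under BPTES and 119.9 and 91.9 CPM under DMSO, and the 7 NK cell markers to 4477 and 4574 CPM against 5876 and 5925 CPM. Both sums were lower under BPTES without overlap. The part of these genes and markers in the Ccl4 result was not tested.

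Ccl5, which attracts T cells and monocytes, did not pass the test in any class. In CD8 T cells the log2 fold change was -0.24 (SE 0.14, adjusted p = 0.506 by edgeR), and in NK cells it was -0.48 (SE 0.18, adjusted p = 0.473 by edgeR), with both BPTES libraries lower in each class. Macrophages had 481 and 519 CPM under BPTES and 446 and 488 CPM under DMSO, values that overlap (log2 fold change 0.10, SE 0.09, adjusted p = 0.528 by edgeR). That level belonged almost wholly to cluster 15, with 979 and 1179 CPM under BPTES and 916 and 828 CPM under DMSO. Cluster 5 had 17.8 and 34.1 CPM under BPTES and 26.6 and 46.7 CPM under DMSO, and its fold had the other sign (-0.50, SE 0.53, adjusted p = 0.682 by edgeR). With each cell thinned to 2000 UMIs, 50.3% to 55.3% of cluster 15 cells and 2.01% to 4.91% of cluster 5 cells had a Ccl5 UMI.

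Ccl24 was rare, and 1 cell decided much of its level. Macrophages gave 28 and 25 Ccl24 UMIs under BPTES and 38 and 101 UMIs under DMSO (1.81, 1.93, 1.69 and 4.03 CPM). In each library a single macrophage held most of these, with 18 and 15 UMIs under BPTES and 20 and 56 UMIs under DMSO, or 52.6% to 64.3% of the class's Ccl24. The class as a whole showed no call (log2 fold change -0.63, SE 0.45, adjusted p = 0.421 by edgeR). Cluster 15 had 3 and 1 UMIs under BPTES against 33 and 78 under DMSO (log2 fold change -3.80, adjusted p = 0.0109 by edgeR). Cluster 5 had 25 and 24 UMIs under BPTES against 5 and 23 under DMSO (log2 fold change 1.33, adjusted p = 0.295 by edgeR). With so few cells behind the counts, no direction can be read for Ccl24.

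**Figure D4:**
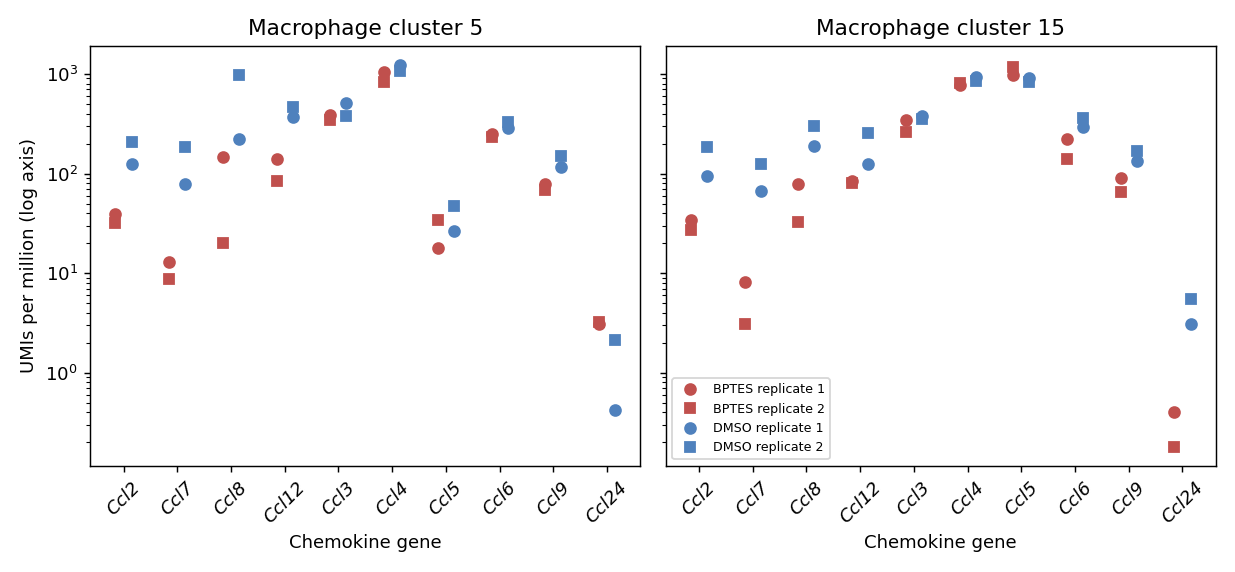
Level of each chemokine in macrophage cluster 5 (left) and cluster 15 (right), UMIs per 1000000 UMIs on a log axis, 1 point per library, red for BPTES and blue for DMSO. Ccl2, Ccl7, Ccl8, Ccl12, Ccl4, Ccl6 and Ccl9 are lower in both BPTES libraries in both clusters, Ccl5 is high in cluster 15, and the groups of Ccl24 trade places.

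Across the leukocyte classes, folds below 0 prevailed while calls were few. The 10 genes gave 88 tested pairs of gene and class in 14 leukocyte classes. Of these, 68 had a negative log2 fold change and 5 passed the threshold, each of them lower (3 in macrophages, 1 in classical monocytes and 1 in NK cells). Of all genes, 3.44% were called lower in macrophages, 1.1% in classical monocytes and 0.668% in NK cells. The median log2 fold change over all genes in the 14 classes lay between -0.0099 (B cells) and 0.0255 (plasma cells). Pairs of one gene in many classes come from the same 4 libraries and are not independent. Pairs such as Ccl8 and Ccl7 in conventional dendritic cells 2 passed the low-count filter only through the group where they were high. Their fold could therefore only be negative.

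No chemokine gene passed in the other 11 leukocyte classes or in endothelium, where 69 pairs were tested. At an unadjusted p under 0.05 there were 15 pairs in these 12 classes, and DESeq2 called 5. Of all genes, the share at that p was lowest in plasma cells (642 of 11424). It was highest in conventional dendritic cells 2 (2334 of 11833). The share of all genes called in either direction there was 2.94% in conventional dendritic cells 2, 1.98% in gamma delta T cells, 0.806% in endothelium, 0.734% in nonclassical monocytes and 0.342% in innate lymphoid cells 2. It was 0.245% in CD8 T cells, 0.161% in conventional dendritic cells 1, 0.158% in CD4 T cells, 0.0613% in plasma cells, 0.0198% in B cells, 0.0184% in cycling leukocytes and 0% in neutrophils. In most of these classes a call of any gene was thus rare.

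Some pairs without a call had large folds on few counts. In conventional dendritic cells 2, Ccl8 had 7 and 2 UMIs under BPTES and 386 and 897 UMIs under DMSO, or 1.21 and 0.363 CPM against 32.2 and 98.6 CPM. The fitted log2 fold change was -6.36 (SE 1.36, adjusted p = 0.189 by edgeR). Ccl7 in the same cells had 4 and 2 UMIs under BPTES and 147 and 488 UMIs under DMSO (adjusted p = 0.284 by edgeR). The 8 macrophage markers in this class summed to 1746 and 1968 CPM under BPTES and 2061 and 2739 CPM under DMSO, and their part was not tested. Ccl3 and Ccl4 were not lower there, with log2 fold changes of 0.09 (SE 0.10) and 0.08 (SE 0.09) and overlapping groups.

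In neutrophils Ccl3 and Ccl4 rested on DMSO replicate 2. Ccl4 had 200 and 295 CPM under BPTES and 384 and 1146 CPM under DMSO (log2 fold change -1.67, SE 0.47, adjusted p = 0.395 by edgeR). For Ccl3 the groups overlapped, since DMSO replicate 1 had the lowest level of the 4 libraries.

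**Figure D5:**
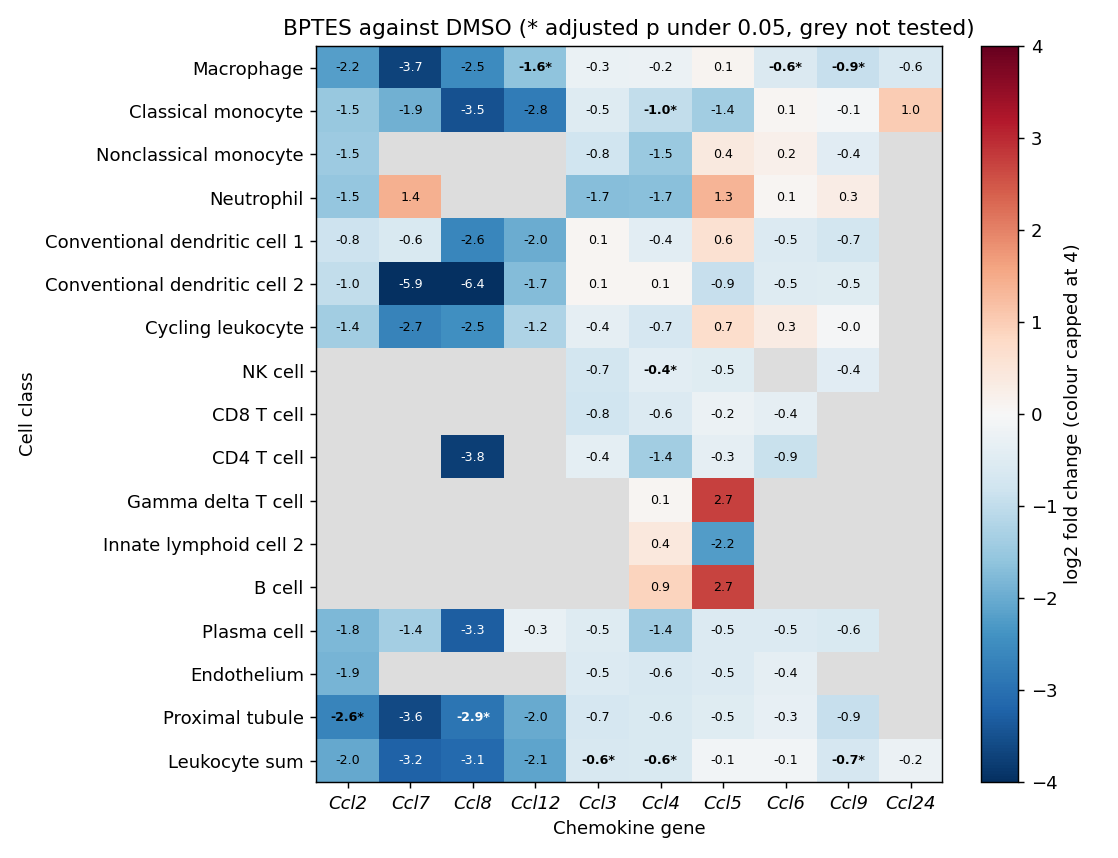
Log2 fold change of BPTES over DMSO for each chemokine (columns) in each class and in the sum of leukocytes (rows); blue is lower under BPTES, red is higher, grey was not tested, and a star marks an edgeR adjusted p under 0.05. Stars stand at Ccl12, Ccl6 and Ccl9 in macrophages, at Ccl4 in classical monocytes and NK cells, at Ccl2 and Ccl8 in proximal tubule, and at Ccl3, Ccl4 and Ccl9 in the sum.

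Summed over all leukocyte classes, where shares of classes and levels within them add up, Ccl3, Ccl4 and Ccl9 fell. The median log2 fold change was -0.66 over the 10 genes and -0.0129 over all genes, and 5.15% of all genes were called lower. Ccl4 had 446 and 383 CPM under BPTES and 669 and 694 CPM under DMSO (415 ± 44.1 and 682 ± 17.4, SD, n = 2 each, log2 fold change -0.61, SE 0.08, adjusted p = 0.0224 by edgeR). Ccl3 had 184 and 152 CPM under BPTES and 269 and 298 CPM under DMSO (log2 fold change -0.65, SE 0.10, adjusted p = 0.0296 by edgeR). Ccl9 had 78.4 and 74.1 CPM under BPTES and 124 and 138 CPM under DMSO (log2 fold change -0.68, SE 0.06, adjusted p = 0.014 by edgeR). In each of the 3 genes the groups lay apart, and leaving out either BPTES library ended all 3 calls. The Ccl3 call was also lost with doublets kept and, at an adjusted p of 0.0503 by edgeR, without DMSO replicate 2.

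The Ccr2 ligands had larger folds in the sum with more spread. Ccl2 had 24.4 and 15.9 CPM under BPTES and 70.0 and 109 CPM under DMSO (log2 fold change -2.05, SE 0.34, adjusted p = 0.0576 by edgeR). Ccl12 had 32.5 and 20.8 CPM under BPTES and 97.9 and 150 CPM under DMSO (log2 fold change -2.12, SE 0.35, adjusted p = 0.0571 by edgeR). Both sat just outside the threshold. Ccl7 (-3.23, SE 0.94), Ccl8 (-3.10, SE 1.2), Ccl6 (-0.12, SE 0.06), Ccl5 (-0.10, SE 0.16) and Ccl24 (-0.24, SE 0.23) were not called. With a library left out, Ccl7 ranged from -4.33 (without BPTES replicate 1) to -2.48 (without DMSO replicate 2), and Ccl8 from -4.35 to -1.98 with the same libraries left out.

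The makeup of the sums differed between the groups. The 8 macrophage markers summed to 3438 and 2964 CPM in all leukocytes under BPTES and 5720 and 6467 CPM under DMSO, without overlap, and their part in these results was not tested. Plasma cells, which secrete antibody and give many UMIs per cell, made up 255 and 196 cells under BPTES and 27 and 27 under DMSO. Without plasma cells 5 of the 10 genes fell, adding Ccl2 (log2 fold change -1.99, adjusted p = 0.0399 by edgeR) and Ccl12 (-2.05, adjusted p = 0.041 by edgeR). Of all genes, 769 of 16838 were called lower in that fit, and 814 of 16805 in the next one. These fits were not planned beforehand. Without macrophage cluster 15, Ccl3 (-0.68), Ccl4 (-0.66) and Ccl9 (-0.62) stayed called, Ccl2 passed the threshold (-1.93, adjusted p = 0.0481 by edgeR) and Ccl12 missed it (-2.28, adjusted p = 0.0501 by edgeR).

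The lower macrophage levels of Ccl2, Ccl12 and Ccl8 showed in how many cells carried a UMI. With each cell thinned to 1000 UMIs, Ccl2 was found in 2.16% and 1.84% of macrophages under BPTES and 6.66% and 11.3% under DMSO. Ccl12 was found in 8.40% and 5.67% under BPTES and 14.8% and 19.2% under DMSO, and Ccl8 in 3.56% and 1.13% against 8.14% and 17.2%. The same shares in the proximal tubule class were at most 0.108% for Ccl2, 0.130% for Ccl12 and 0.169% for Ccl8. Median depths before thinning were 15168 UMIs per macrophage under BPTES and 19749 under DMSO, and 16199.5 and 17574 UMIs per proximal tubule cell.

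Ccl7 was found in 0.382% and 0.426% of macrophages under BPTES and 3.70% and 7.93% under DMSO. Of the 10 genes, 7 were found in fewer macrophages of both BPTES libraries than of either DMSO library at this depth, and all 10 were so without thinning, where depth itself differs. Of all genes with a UMI in at least 10 macrophages, 22.0% were lower in the same way at 1000 UMIs per cell and 63.7% without thinning. In cluster 5, Ccl2 was found in 2.36% and 1.93% of the same thinned cells under BPTES and 6.75% and 11.6% under DMSO, and in cluster 15 in 1.69% and 1.60% against 6.42% and 10.8%. Ccl4, the gene found in most macrophages, showed in 28.8% and 28.9% under BPTES and 33.6% and 34.1% under DMSO. For Ccl6, called lower by level, the shares of cluster 5 cells overlapped, with 21.3% and 19.1% under BPTES and 18.1% and 21.2% under DMSO.

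Under BPTES a few cells held most of the Ccl7 and Ccl8 UMIs. The richest 1% of macrophages held 79.9% and 78.0% of the class's Ccl7 under BPTES and 46.6% and 22.8% under DMSO. For Ccl8 these shares were 63.1% and 70.5% under BPTES and 39.2% and 29.0% under DMSO, whereas for Ccl12 they lay between 28.04% and 33.75% in all 4 libraries. In cluster 5 alone the richest 1% held 88.3% and 80.0% of Ccl7 under BPTES against 45.4% and 27.2% under DMSO. Such shares depend on a gene's total, which was lower under BPTES for all 3.

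Some pairs of genes were found together in macrophages more often than their shares among all macrophages. At 2000 UMIs per cell, 33.9% and 49.6% of Ccl7-positive macrophages of the DMSO libraries also had a Ccl2 UMI, against 12.2% and 18.8% of all macrophages. Of the same cells, 51.6% and 46.0% had Ccl12, against 19.3% and 25.2% of all. Ccl3-positive macrophages had Ccl4 in 64.6% to 73.0% of cases over the 4 libraries, against 35.9% to 43.1% of all macrophages. In cluster 5 alone, 33.3% and 50.8% of Ccl7-positive cells of the DMSO libraries had Ccl2, against 12.1% and 18.0% of all its cells. Such pairs were not confined to neighbours on the chromosome. In DMSO replicate 1, Ccl2-positive macrophages had Ccl3 in 43.5% and Ccl4 in 56.5% of cases, against 32.2% and 42.0% of all macrophages. No test was run on these shares.

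Whether the treatment effect differed between macrophages and other cells was tested as an interaction with library as a block. Against conventional dendritic cells 2, 1 of the 10 genes passed, where 0.938% of all genes were called in either direction. This was Ccl8, whose log2 fold change was 3.88 higher in macrophages (SE 0.22, adjusted p = 0.000206 by edgeR), that is, less negative than in the dendritic cells. Fitted apart, Ccl8 had an SE of 1.18 in macrophages and 1.36 in the dendritic cells. With 7 and 2 dendritic cell UMIs under BPTES, an SE of 0.22 is no measure of precision. The call cannot settle whether the effects differed. Without BPTES replicate 1 the difference was 3.51 and was not called (adjusted p = 0.0672 by edgeR), and it rests on the 7 and 2 UMIs of the dendritic cells under BPTES. With macrophage cluster 5 alone in place of the class the difference was 3.66 (adjusted p = 0.0296 by edgeR), and Ccl8 was again the 1 gene that passed. With the whole macrophage class, 4 genes had an unadjusted p under 0.05, the others being Ccl2 (-1.14), Ccl3 (-0.31) and Ccl9 (-0.40), with the opposite sign to Ccl8. Of all genes, 1568 of 13754 had such a p. Against classical monocytes none of the 10 genes passed, where 1.14% of all genes were called in either direction. At an unadjusted p under 0.05 there were 4 genes, namely Ccl2 (-0.67), Ccl4 (0.73), Ccl6 (-0.70) and Ccl9 (-0.88), and 2158 of all 13907 genes. DESeq2 was not run for this test.

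Proximal tubule, the largest class of kidney cells, showed very low levels that moved with the leukocytes. Ccl2 had 11 and 12 UMIs under BPTES and 56 and 90 UMIs under DMSO, or 0.0889 and 0.120 CPM against 0.502 and 0.880 CPM. Its log2 fold change was -2.65 (SE 0.42, adjusted p = 0.0431 by edgeR). With so few UMIs under BPTES, Ccl2 passed the low-count filter only with the DMSO libraries, where it was high. Ccl8 had 14 and 13 UMIs under BPTES and 69 and 138 UMIs under DMSO (log2 fold change -2.94, SE 0.47, adjusted p = 0.0488 by edgeR). Of all genes tested in proximal tubule, 0.432% were called lower. As a share of the level in the leukocyte sum, the tubule level was 0.518% under BPTES and 0.772% under DMSO for Ccl2 and 0.704% and 0.624% for Ccl8. The median of that share over 105 leukocyte marker genes was 0.518% under BPTES and 0.548% under DMSO. Whether free leukocyte RNA accounts for the tubule values was not tested. The 12 immediate early and dissociation genes summed to 143 and 146 CPM in proximal tubule under BPTES and 209 and 271 CPM under DMSO, with Atf3, Junb and Zfp36 called lower (log2 fold changes -1.27, -0.74 and -0.84), and the macrophage gene Mrc1 was also called lower there (-1.28). The part of these genes in the tubule results was not tested. With doublets kept, the Ccl2 fold shrank to -1.11. Both calls were lost under RLE scaling, with doublets kept, at a 25% mitochondrial limit, at Leiden resolution 2 and without either BPTES library.

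Some CC chemokine receptors also differed. Ccr1, a receptor of Ccl3, Ccl5, Ccl6 and Ccl9, had 16.4 and 14.7 CPM in macrophages under BPTES and 34.1 and 36.3 CPM under DMSO. It fell in that class without overlap of the groups (log2 fold change -1.17, SE 0.09, adjusted p = 0.00401 by edgeR), and did so in cluster 5 alone (-1.13, SE 0.16, adjusted p = 0.0345 by edgeR). In the sum of leukocytes Ccr2, the receptor of Ccl2, Ccl7 and Ccl12, fell (log2 fold change -0.50, SE 0.08, adjusted p = 0.0306 by edgeR) and Ccr10 rose (4.35, SE 0.59, adjusted p = 0.0411 by edgeR). Ccr10 guides plasma cells to epithelia, and plasma cells, the class that differed in number, had 59.5 and 130 CPM of it under BPTES and 39.8 and 33.4 CPM under DMSO.

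Among the other CC ligands, 2 of 6 tested in the sum of leukocytes fell and none rose, where 5.15% of all genes were called lower. They were Ccl17 (log2 fold change -2.23, SE 0.24, adjusted p = 0.0286 by edgeR) and Ccl22 (-2.89, SE 0.20, adjusted p = 0.0136 by edgeR), ligands of Ccr4 made by dendritic cells. Within conventional dendritic cells 2, Ccl17 had 172 and 120.2 CPM under BPTES and 481 and 561 CPM under DMSO and fell (log2 fold change -1.87, SE 0.19, adjusted p = 0.0253 by edgeR). Of all genes tested in that class, 202 of 11833 were called lower. At Leiden resolution 2 a cluster of mature dendritic cells with Ccl22 among its leading genes came out of that class, with 2 and 4 cells under BPTES and 28 and 27 under DMSO. The part of these cells in the results of conventional dendritic cells 2 and of the sum was not tested. In macrophages 1 of 5 was called lower, where 3.44% of all genes were. This was Ccl1, with 1 and 0 UMIs under BPTES and 14 and 23 UMIs under DMSO, which passed the low-count filter through the DMSO libraries alone. Cluster 15, which carries T cell markers, held 1 and 0 of these UMIs under BPTES and 12 and 23 under DMSO. Cluster 5 held 0 and 0 under BPTES and 2 and 0 under DMSO, and Ccl1 was not tested there. None of the 4 atypical chemokine receptors, which take up chemokines without signalling through G proteins, was called in the sum of leukocytes by edgeR or by DESeq2, and 1 had an unadjusted p under 0.05.

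Cytokines listed as inducers of chemokine genes showed few calls in the sum of leukocytes and in macrophages. Elsewhere 1 of 7 tested rose in CD4 T cells and 1 of 3 fell in conventional dendritic cells 1. In endothelium 1 of 4 fell and 1 rose. Of all genes, 0.158%, 0.161% and 0.806% were called in either direction in these 3 classes. In the sum of leukocytes 0 of 10 passed edgeR's test, with 3 at an unadjusted p under 0.05 and 1 called by DESeq2. Of all genes there, 5253 of 17076 had such an unadjusted p. In macrophages, where 1.8% of all genes were called higher, 1 of 7 tested rose, the type 2 cytokine Il4, with 4 and 3.54 CPM under BPTES and 1.29 and 0.718 CPM under DMSO (log2 fold change 1.91, SE 0.34, adjusted p = 0.0316 by edgeR). Nearly all of it lay in cluster 15, which carries T cell markers, with 62 and 44 UMIs under BPTES and 26 and 17 UMIs under DMSO. Cluster 5 held 0 and 2 Il4 UMIs under BPTES and 3 and 1 UMIs under DMSO, too few for the test.

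Of 9 tested genes of resident Lyve1-positive macrophages, a perivascular type, 3 fell in macrophages and none rose, where 3.44% of all genes were called lower: Pf4 (log2 fold change -1.09, SE 0.16), Mrc1 (-0.84, SE 0.15) and Gas6 (-0.78, SE 0.13). In cluster 5 alone none of the 3 was called, with log2 fold changes of -0.90 (adjusted p = 0.149 by edgeR), -0.82 (adjusted p = 0.104) and -0.82 (adjusted p = 0.135). The 10 genes of the list summed to 774 and 612 CPM in macrophages under BPTES and 1069 and 1389 CPM under DMSO. Their part in the chemokine results was not tested. The 12 immediate early and dissociation genes summed to 5257 and 5734 CPM in macrophages under BPTES and 4929 and 5264 CPM under DMSO, overlapping sums. None of the 12 was called there by edgeR, with 6 at an unadjusted p under 0.05 and 2 called by DESeq2. Of all genes there, 3723 of 14036 had such an unadjusted p.

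The genes most like each chemokine were ranked over the class sums that also gave the sources. They are therefore no separate naming of the cells. The measure was Pearson's r of log2(CPM + 1) over 84 sums (21 classes in 4 libraries that share depth and free RNA), among 8382 genes. Ccl3 and Ccl4 were nearest to each other (r = 0.962). Ccl8 was nearest to Fcrls (0.929), and Ccl12 to the complement gene C1qc (0.933), itself a marker used to name macrophages. Ccl7 was nearest to the platelet factor gene Pf4 (0.879), then to Ccl12 (0.868) and Ccl8 (0.865), the neighbours in its own block. Ccl2 was nearest to Trem2 (0.929), Ccl6 to Igsf6 (0.979), Ccl9 to the Fc receptor gene Fcgr3 (0.949), Ccl5 to the cytotoxic granule gene Nkg7 (0.918), and Ccl24 to F13a1 (0.832).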

How the data were processed

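Single-cell RNA of mouse kidney was measured in 4 libraries (GEM-X 3' chemistry, per the labels). The authors deposited raw counts of UMIs per gene and barcode, made with Cell Ranger 8.0.1 on mm10 per the submitters' processing notes. Barcodes with at least 500 UMIs, at least 300 genes and at most 50% mitochondrial UMIs were kept, out of 76278 barcodes, of which 25273 were over the mitochondrial limit. The 3867 highest Scrublet scores (0.4% per 1000 barcodes) were removed as doublets. Scrublet's own threshold marked 175, 112, 146 and 0 cells, too few in the last to have worked.

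Cells were clustered with Scanpy 1.11.5 and leidenalg 0.10.2 in Python 3.11.15 (3000 variable genes without chemokine and receptor genes, 40 components, 15 neighbours, resolution 1) and named from fixed marker lists. Counts were summed per class and library, since cells are not replicates, for classes with at least 20 cells in every library. Sums were tested in R 4.3.3 with edgeR 4.0.16 (robust quasi-likelihood, TMM, filterByExpr with a minimum count of 10, Benjamini-Hochberg within a class, threshold 0.05). The interaction fits had library as a block. Depth per class sum limits precision, and counting error is only part of the spread between libraries. The fits were also run on simulated data, whose outcome is not given here. DESeq2 1.42.0, other scalings, filters, clusterings and left-out libraries were alternatives.

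The rule for named genes gives each chemokine in its leading class and wherever it passed, and at most 5 called genes per other list in macrophages or the leukocyte sum. Likeness was ranked among genes with at least 50 CPM in some class. Members and lists were chosen with earlier results of these data known. The correlation of same-numbered libraries' deviations from their group means was -0.0281 in macrophages and 0.0212 in the leukocyte sum, and ranged from -0.143 in plasma cells to 0.227 in proximal tubule (0.15 in conventional dendritic cells 2). With 2 pairs and no shared source in the labels, the numbers were not taken to pair libraries. One gene of the receptor list and 1 sequence are not reported here, and no counts over that list are given.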

Additional observations from a re-analysis of the deposited data

Results flagged for a closer look

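The difference in treatment effect on Ccl8 between macrophages and conventional dendritic cells 2 stood out, because the test of the interaction itself called it, on very few dendritic cell UMIs under BPTES. Ccl8 did not pass the threshold in either class alone, and the log2 fold change was 3.88 higher in macrophages (SE 0.22, adjusted p = 0.000206 by edgeR, with a range of 3.45e-38 to 0.0672 over 7 alternatives). Ccl8 UMIs in macrophages numbered 1758 and 332 with BPTES against 4625 and 14907 with DMSO. In the dendritic cells they numbered 7 and 2 with BPTES against 386 and 897 with DMSO. In the dendritic cells Ccl8 passed the low-count filter only through the DMSO libraries, and without BPTES replicate 1 the difference was not called (3.51, adjusted p = 0.0672 by edgeR). Within both classes DMSO replicate 2 had the highest level, and BPTES replicate 2 had the lowest. With so few dendritic cell UMIs under BPTES, the call cannot settle whether the treatment effect differed between the classes.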

How the results depend on the processing

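No alternative changed the sign of Ccl2, Ccl3, Ccl4, Ccl7, Ccl8, Ccl9 or Ccl12 in macrophages or the leukocyte sum, while calls moved often. Over all alternatives, 288 single-gene fold changes kept direction and side of the threshold, 57 lost a call, 19 gained one and 15 turned sign. Only a value called in the main fit could lose a call, so the 57 are not to be read against all of these fold changes. The number of libraries limits precision, and a left-out library leaves 1 sample in its group, assumed to vary like the others. The cause of these moves was not tested, except that fewer cells or genes entered the fits of single clusters.

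Lower chemokine genes in macrophages (3) numbered 5 by DESeq2, 0 with the replicate block, 0 in cluster 5 alone and 0 to 6 with a library left out. In the other leukocyte classes (2 pairs) there were 8 by DESeq2, 12 with the block, 5 with chemokine genes in the clustering, 6 with doublets kept, 5 at a 25% mitochondrial limit, 22 without the low-count filter and 4 to 18 with a library left out. In proximal tubule (2) there were 7 with the block, 8 without the filter, 1 with chemokine genes in the clustering, 0 with RLE scaling, doublets kept, the 25% limit or Leiden resolution 2, and 0 to 4 with a library left out. In the leukocyte sum (3) there were 7 by DESeq2, 5 without plasma cells and 0 to 3 with a library left out. Differences from classical monocytes (0) numbered 4 without the filter and 0 to 2 with a library left out, and those from conventional dendritic cells 2 (1) numbered 6 and 0 to 2. All genes lower in macrophages (483) numbered 111 with the block, 227 with chemokine genes in the clustering, 226 at the 25% limit, 1161 without the filter, 37 in cluster 5 alone and 0 to 1076 with a library left out. In the leukocyte sum (880) they numbered 347 with the block, 566 at the 25% limit and 15 to 671 with a library left out. All genes lower in proximal tubule (69 of 15980) numbered 869 with the block, 864 of 23665 without the filter and 66 with chemokine genes in the clustering. They numbered 52 with RLE scaling, 14 with doublets kept, 76 at the 25% limit and 37 at Leiden resolution 2. Per class of the other leukocytes they numbered 0 to 202 in the main fit and 6 to 302 by DESeq2. With the block they numbered 0 to 438 per class, and without the filter 101 to 796. The shared replicate numbers were not taken to pair samples, so a call lost under the block is no weaker effect.

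Signs turned for values that were not called. Ccl5 was -0.50 in macrophage cluster 5 alone, and in the leukocyte sum 0.015 without plasma cells and -0.27 to 0.098 with a library left out, above 0 at 0.047 when that was BPTES replicate 1. Ccl24 was 1.33 in macrophage cluster 5 alone and -1.12 to 0.14 in macrophages with a library left out (above 0 for DMSO replicate 2), and in the leukocyte sum 0.089 with doublets kept and 0.65 without macrophage cluster 15. Ccl6 was 0.13 in the leukocyte sum at the 25% limit, and in classical monocytes -0.16 with doublets kept and -0.26 to 0.49 with a library left out, below 0 for DMSO replicate 1 and, at -0.016, BPTES replicate 2. Ccl9 in classical monocytes ranged from -0.36 to 0.28 with a library left out, above 0 for DMSO replicate 2 and, at 0.045, BPTES replicate 1. The Ccl8 difference from classical monocytes ranged from -0.43 (without BPTES replicate 1) to 1.42.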

Other observations

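Outside the named leukocytes, Ccl2 reached its highest level in an unnamed cluster (cluster 43) whose leading genes include Havcr1, a marker of injured tubule. It had 275 and 0 CPM there under BPTES (58 and 0 UMIs) and 478 and 112 CPM under DMSO (487 and 658 UMIs). The cluster had 7 and 5 cells under BPTES and 28 and 107 under DMSO, so the BPTES levels rest on few cells. A second unnamed cluster with Havcr1 among its leading genes (cluster 30) had 0 and 98.2 CPM under BPTES and 6.84 and 88.5 CPM under DMSO. Unnamed clusters held 7.02% of all Ccl2 UMIs on average, against 2.66% in the named kidney classes.

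Ccl8 was high in a small unnamed cluster of shallow cells (cluster 40) whose leading genes include C1qa, C1qb, C1qc and Pf4. At Leiden resolution 2 the same 211 cells, with a median of 1209 UMIs, were named macrophage. Ccl8 had 259 and 1143 CPM under BPTES (26 and 58 UMIs) and 185 and 748 CPM under DMSO (15 and 140 UMIs). The groups overlapped. Another unnamed cluster (cluster 39) had 12.5 and 11.96 CPM of Ccl8 under BPTES and 36.1 and 24.2 CPM under DMSO, from 7 to 23 UMIs per library.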
